A study of Mus musculus with 16 samples.

Results

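The loci of 10 genes that govern whether a cell stays in the division cycle or leaves it were examined for open chromatin: Cdkn1a, Cdkn1b, Cdkn1c and Cdkn2c, Ccnd1, Ccnd2 and Ccnd3, and Rb1, Rbl1 and Rbl2. Each locus was taken as the gene body in the GENCODE M21 annotation of the mm10 genome plus 50 kb on each side, and held every ATAC-seq peak whose summit lay inside that window. The 10 windows held 802 of the 565331 peaks in 16 lists, which merged into 110 of 81035 open regions. ATAC-seq marks DNA that a transposase can reach, so a peak is a stretch of accessible chromatin.

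The cells were C2C12 iMyoD1, a polyclonal population of the mouse C2C12 myoblast line that carries its own MyoD1 and, in every group, a Halo-MyoD1 transgene that doxycycline (dox) switches on from a TRE3GS promoter. The 4 groups were GM (proliferating cells kept 24 h in growth medium without dox), GM +dox (growth medium with dox for 24 h), DM (24 h of serum withdrawal without dox) and DM +dox (serum withdrawal with dox for 24 h). Each group had 4 libraries described as biological replicates. Cells for DM were seeded at 300000 per well and cells for GM at 75000, so that medium and density cannot be told apart.

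A myoblast withdraws from the cell cycle before it fuses. D-type cyclins, with their kinase partners, phosphorylate the pocket proteins Rb1, Rbl1 (p107) and Rbl2 (p130), which otherwise hold E2F transcription factors in check, while the CDK inhibitors of the Cip/Kip family (p21, p27 and p57, from Cdkn1a, Cdkn1b and Cdkn1c) and of the INK4 family (p18, from Cdkn2c) block the kinases. In muscle cells p21, p57, p18 and Rb1 are well known for their roles in a lasting exit from the cycle, and cyclin D3 stands out among the D cyclins because its level is known to be kept in differentiating muscle.

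DM replicate 1 of both dox states was left out. The study set both aside as quality outliers. Those lists held 1287 and 14236 peaks, with 2 and 19 peaks in the 10 windows. The 14 kept lists held 14710 to 58587 peaks, and 20 to 86 peaks in the windows. GM replicate 1 had the shortest kept list, and lacked a peak at several regions that every other kept library held. To set lists of unlike length side by side, the 14710 strongest peaks of each library by -log10 p were used, which left 19 to 25 peaks per library in the windows. A peak within 1 kb of an annotated start was listed in at least 1 kept library for 5 of 5 myoblast genes. It was listed in 14 of 14 kept libraries for Myod1, 13 for Des, 10 for Cdh15, 9 for Itga7 and 6 for Myf5. Itga7 and Myf5 had none in DM. Such a peak was also listed for 1 of 5 genes of differentiating muscle (Ckm, in 9 libraries, with none at Myog, Mymk, Mymx or Acta1). The same held for 1 of 5 genes of other cell types (Pecam1, in 8 libraries, with none at Ptprc, Adipoq, Sox10 or Epcam).

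The sequences of 8 regions are given first, because the comparisons turn on them. Each is the mm10 (GRCm38.p6) reference, + strand, within 100 bp of the summit of the region's strongest peak, apart from the shorter one at a Cdkn1a start, which stops before the transcript. Capitals mark a match on either strand to CAGCTG, the E-box that MyoD1 prefers, to TGANTCA, the AP-1 site, or to GCGGGAA, an E2F site. Distances are from the 5′ end of the gene, in the direction of transcription.
Cdkn1a, 11.9 kb upstream, chr17:29078968-29079168, in an exon of the noncoding gene Trp53cor1, 111 bp from its start: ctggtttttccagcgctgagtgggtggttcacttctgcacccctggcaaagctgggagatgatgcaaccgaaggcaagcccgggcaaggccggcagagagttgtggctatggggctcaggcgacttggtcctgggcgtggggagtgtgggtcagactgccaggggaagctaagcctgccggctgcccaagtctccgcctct
Cdkn1a, 2.8 kb downstream, chr17:29093643-29093768, directly upstream of an internal Cdkn1a start: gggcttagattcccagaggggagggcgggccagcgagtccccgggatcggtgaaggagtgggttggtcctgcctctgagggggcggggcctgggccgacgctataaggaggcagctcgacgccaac
Cdkn1b, 8.3 kb downstream, chr6:134928572-134928772, between genes, 420 bp from the start of the noncoding gene Lockd: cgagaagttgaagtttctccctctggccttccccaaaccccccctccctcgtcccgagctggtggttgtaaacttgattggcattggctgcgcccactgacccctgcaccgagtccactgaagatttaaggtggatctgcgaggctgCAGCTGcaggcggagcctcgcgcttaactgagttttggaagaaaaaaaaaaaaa
Cdkn2c, 9.2 kb upstream, chr4:109676249-109676449, between genes, 239 bp from the start of Faf1: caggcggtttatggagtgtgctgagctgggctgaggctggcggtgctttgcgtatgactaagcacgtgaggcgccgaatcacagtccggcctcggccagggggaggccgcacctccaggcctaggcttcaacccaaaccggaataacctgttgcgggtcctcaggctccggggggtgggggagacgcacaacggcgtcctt
Ccnd1, 31.6 kb upstream, chr7:144971444-144971644, between genes: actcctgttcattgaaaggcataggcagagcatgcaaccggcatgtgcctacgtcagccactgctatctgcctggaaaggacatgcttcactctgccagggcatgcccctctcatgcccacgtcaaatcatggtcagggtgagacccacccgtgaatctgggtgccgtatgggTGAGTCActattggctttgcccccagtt
Ccnd1, 41.7 kb upstream, chr7:144981553-144981753, between genes: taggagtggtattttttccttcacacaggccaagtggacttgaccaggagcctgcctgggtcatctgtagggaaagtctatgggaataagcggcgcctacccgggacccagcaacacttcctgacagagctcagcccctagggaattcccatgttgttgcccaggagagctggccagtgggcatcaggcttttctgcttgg
Ccnd3, 90.6 kb downstream, chr17:47595579-47595779, in the region over a Ccnd3 exon, 389 bp from an internal Ccnd3 start: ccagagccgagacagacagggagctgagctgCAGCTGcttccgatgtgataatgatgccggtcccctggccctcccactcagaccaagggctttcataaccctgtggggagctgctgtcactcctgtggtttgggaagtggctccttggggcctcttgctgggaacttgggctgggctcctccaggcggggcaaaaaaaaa
Rbl1, 34.1 kb downstream, chr2:157170324-157170524, in an Rbl1 intron: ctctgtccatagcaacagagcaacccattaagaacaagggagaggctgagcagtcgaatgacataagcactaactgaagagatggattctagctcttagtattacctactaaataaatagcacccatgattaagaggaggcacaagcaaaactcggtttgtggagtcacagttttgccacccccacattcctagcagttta
The windows at Cdkn1b and Ccnd3 each held 1 CAGCTG, and the one 31.6 kb upstream of Ccnd1 held TGAGTCA, a form of the AP-1 site. The other 5 held none of the 3 motifs.

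Over the 110 regions, CAGCTG was found in 27 (24.5%), against 19.9% of the 80290 regions of the genome with a peak in a kept library. TGANTCA was found in 19 (17.3%), against 31.7%, and GCGGGAA in 5 (4.55%), against 1.68%. Among the 37 regions that reached the strongest peaks of any kept library, the shares were 21.6%, 13.5% and 10.8%, against 18.9%, 34.2% and 2.89%. The share was lower for the AP-1 letters and higher for the E2F letters than over the genome's open regions, and the median GC content was higher as well, at 55.2% against 50.7%. Whether GC content accounts for the motif shares was not tested. A match describes the letters of a window and is no evidence of a bound factor.

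Most of the open chromatin of these loci lay away from the genes' own starts. Of the 110 regions, 16 lay within 1 kb of an annotated start of the member gene, 24 at the start of another gene, 17 elsewhere inside the member gene and 53 outside both. A peak stood in all 14 kept libraries at 17 regions (15.5%, against 13.8% genome-wide) and in only 1 library at 26 (23.6%, against 23.5%). Of those 17, 4 were at a start of the member, 8 at a start of a neighbour, 2 inside the member and 3 outside. At 7 regions (6.36%, against 7.56%) the peak was among the strongest in every kept library. These shares were near those of the genome.

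**Figure D1:**
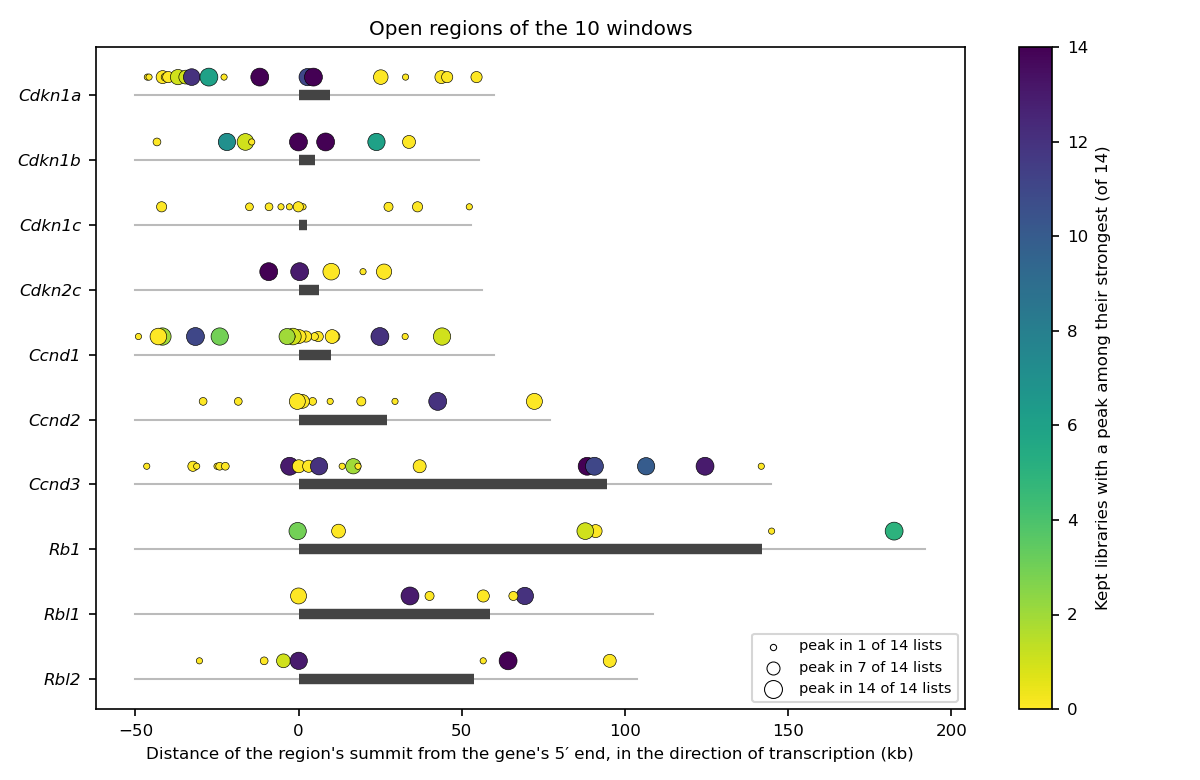
Open regions of the 10 windows, by distance of the summit from the gene's 5′ end in kb. Circle size gives the number of the 14 kept libraries with a peak and colour the number with that peak among their strongest; Cdkn1c held no region among the strongest, and Ccnd3, with 4, had the most regions found in every library.

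The gene starts themselves differed widely. Where a gene had several start regions, the one listed in most libraries was taken. The start regions of Cdkn1b and of Ccnd3 (88.4 kb downstream, at an internal start) were among the strongest peaks of all 14 kept libraries, with fold enrichments of 6.30 to 18.2 and of 5.78 to 14.3. Those of Cdkn2c and Rbl2 were among the strongest in 13 libraries, at 6.71 to 18.5 and 9.36 to 17.8, and the Cdkn1a start 2.8 kb downstream in 11, at 6.38 to 11.3. The Rb1 start had a peak in 13 libraries, at 5.2 to 13.4, but reached the strongest peaks in 3. At Rbl1 and Ccnd2 a start peak was listed in 11 libraries, at folds of 5.85 to 11.5 and 4.53 to 13, and in none among the strongest. Ccnd1 had a peak at one of its 2 start regions in 9 libraries, at 3.58 to 7.12, and Cdkn1c at one of 2 in 5 libraries, at 4.04 to 6.11, again none of them among the strongest. The absence of a listed peak says only that none passed the caller's threshold.

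Set against 21755 protein-coding genes with the same window, for which the median was 1.36 strongest peaks per library, the members spanned nearly the whole range. Ccnd3 had 5.36 strongest peaks per library, above 95% of genes, in a window of 195 kb. Cdkn1a had 4.21 in 109.8 kb and Cdkn1b 3.07 in 105 kb. Ccnd1 (2.29), Rbl2 (2.14), Cdkn2c (1.93) and Rbl1 (1.79) lay somewhat above the median, Ccnd2 (0.857) and Rb1 (0.643) below it, and Cdkn1c had 0. The Rb1 window was the longest of the 10 at 242 kb.

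The first question was whether dox-induced MyoD1, or serum withdrawal, altered the fold enrichment of these regions. It was asked at the 17 regions that every kept library listed, within a limma model over all 11046 such regions, with fold enrichments on a log2 scale quantile normalized across libraries and p-values adjusted over all of them. No member region passed an adjusted p of 0.05 in any comparison. The background was equally sparse. Of the 11046 regions, dox called 0% in GM and 0% in DM, serum withdrawal called 0.263% in cells without dox (3 higher and 26 lower in DM) and 0.0453% in cells with dox (5 lower), and the interaction of dox and medium called 0%. With the replicate number as a block these 4 shares were 0%, 0.0815%, 1.18% and 0.353%, and again no member region was called (smallest limma adjusted p 0.383, 0.356, 0.209 and 0.0778). The median half-width of a member's 95% confidence interval was 0.34 to 0.40 on the log2 scale, without the adjustment over 11046 regions. Smaller shifts could not be shown, and larger ones could go uncalled. The 0.47 at Ccnd3 90.6 kb downstream, for DM against GM without dox, was not called (limma adjusted p 0.315).

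None of the estimates in the 4 comparisons exceeded 0.51 in size. For dox in GM the 17 differences ran from -0.21 to 0.40 with a median of 0.05, 11 above and 6 below 0. For dox in DM they ran from -0.26 to 0.43 with a median of -0.04, 6 above and 11 below. With serum withdrawal and no dox 14 were above and 3 below 0, with a range of -0.25 to 0.47 and a median of 0.14, beside a median of 0.01 over all regions. With the replicate block this median was 0.07 and the range -0.19 to 0.47. With serum withdrawal under dox they ran from -0.39 to 0.51 with a median of 0.04, 10 above and 7 below. The leaning toward DM without dox was the most one-sided of these, and at an unadjusted p under 0.05 it held 4 of the 17 regions, against 11% of all regions. The comparisons share libraries in pairs, so they are not separate evidence.

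**Figure D2:**
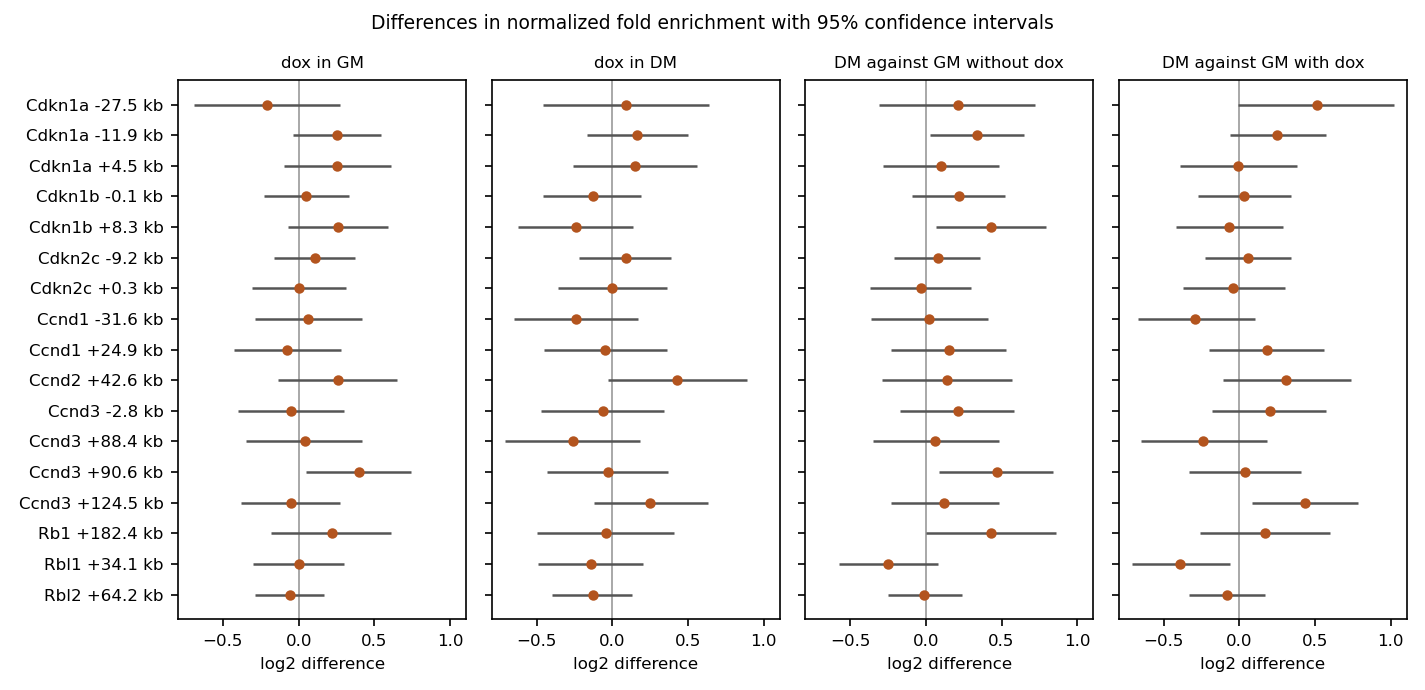
Differences in quantile-normalized log2 fold enrichment at the 17 regions found in all 14 kept libraries, 1 panel per comparison, with 95% confidence intervals from limma. Points right of 0 are higher with dox, or higher in DM; none passed an adjusted p of 0.05.

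Among the CDK inhibitors, Cdkn1a (p21, the inhibitor induced by p53 and by MyoD1) had its highest fold enrichment 11.9 kb upstream, at the start of the p53-responsive long noncoding gene Trp53cor1. Its fold enrichment was 6.98, 20.3, 8.36 and 17.9 in GM, 22, 22.6, 20.9 and 13.5 in GM +dox, 11.3, 18.7 and 23.7 in DM, and 27.7, 25.4 and 24.9 in DM +dox. The DM +dox libraries stood above all the others on this raw scale, but that scale follows each library's own enrichment, whose median fold ran from 6.05 to 10.5. By rank within the library (rank 1 being the smallest p), the region was at 4706 to 8916 in GM, 1653 to 7313 in GM +dox, 337 to 6458 in DM and 462 to 2103 in DM +dox, so that only DM +dox stood clear of GM. On the normalized scale, DM exceeded GM by 0.34 ± 0.15 (log2, SE) without dox and by 0.25 ± 0.15 with dox, and dox added 0.25 ± 0.14 in GM and 0.16 ± 0.16 in DM. None of these passed (limma adjusted p 0.390, 0.773, 0.799 and 0.874).

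Of the other Cdkn1a regions, the one 27.5 kb upstream, in an intron of Trp53cor1, was listed in every kept library and among the strongest in 6. Its fold was 6.49, 7.37, 5.01 and 8.99 in GM, 13.1, 8.55, 4.76 and 6.68 in GM +dox, 8.80, 7.17 and 8.36 in DM, and 14.3, 12.0 and 10.6 in DM +dox. DM +dox stood above GM and DM on this raw scale, and overlapped with GM +dox. With dox, DM exceeded GM by 0.51 (log2, SE 0.25, 95% interval -0.01 to 1.02, limma adjusted p 0.666), by 0.28 once GM +dox replicate 3 was left out, and by 0.73 ± 0.18 with the replicate block (limma adjusted p 0.0778). Without dox it exceeded GM by 0.21, and dox gave -0.21 in GM and 0.09 in DM (limma adjusted p 0.803, 0.917 and 0.954). With the replicate block, DM exceeded GM without dox by 0.43 ± 0.18 (limma adjusted p 0.286). The interaction with the block was 0.30 ± 0.25 (limma adjusted p 0.999).

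At the Cdkn1a start 2.8 kb downstream, the fold was 7.83, 6.38 and 8.51 in GM replicates 2 to 4 with no peak in replicate 1, 6.80 to 9.82 in GM +dox, 7.39, 9.99 and 11.3 in DM, and 9.60, 11.2 and 10.1 in DM +dox, and the groups overlapped apart from DM +dox against GM. In a fit that asks for at least 2 peaks per group, chosen after the data were seen, DM exceeded GM there by 0.47 ± 0.23 without dox (log2, SE, limma adjusted p 0.458). In an intron 4.5 kb downstream the peak was among the strongest of all 14 libraries, at 4.18 to 13.5, with differences of -0.01 to 0.25. The region 32.8 kb upstream, at the start of the noncoding AC167363.1, ranked 6508, 6502 and 6239 in DM +dox and 9615 to 12135 in GM +dox, without overlap. In GM it ranked 8362 to 13785 in 3 libraries, and in DM 10372 and 6075 in 2 libraries, with no peak in the remaining ones.

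Cdkn1b (p27, the inhibitor that accumulates in cells deprived of growth factors) had constant peaks at its start and 8.3 kb downstream, near Lockd. At its start the 4 differences lay between -0.13 and 0.22. At the downstream region the fold was 4.38, 15.7, 10.9 and 15.5 in GM, 15.3, 17.6, 16.7 and 14.5 in GM +dox, 13.4, 13.3 and 17.5 in DM, and 19.3, 17.4 and 16.1 in DM +dox. The groups overlapped, with GM replicate 1 far below the rest. DM exceeded GM by 0.43 without dox (SE 0.17, 95% interval 0.07 to 0.79, limma adjusted p 0.335), but by 0.20 once GM replicate 1 was left out. With dox the difference was -0.07 ± 0.17 (limma adjusted p 0.958), and the interaction was -0.50 ± 0.24 (limma adjusted p 1.000), or -0.29 without that library. With the replicate block, DM differed from GM by 0.29 ± 0.14 without dox and by -0.21 ± 0.14 with dox (limma adjusted p 0.353 and 0.670). By rank, DM stood at 2540 to 3131, clear of GM at 3912 to 13308 and of DM +dox at 3216 to 7203. A further region 23.8 kb downstream, in a Lockd intron, was listed in 13 libraries at folds of 6.16 to 19.2.

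Cdkn2c (p18, an INK4 inhibitor of CDK4 and CDK6) had peaks in all 14 libraries at its start and 9.2 kb upstream, near Faf1. At the start, the 4 differences lay between -0.04 and 0.00. At the upstream region the fold was 6.67, 16.3, 10.3 and 12.9 in GM, 17.0, 19.3, 17.0 and 10.9 in GM +dox, 11.6, 11.4 and 14.7 in DM, and 21, 19.0 and 16.9 in DM +dox. By rank it stood at 2143 to 3341 in DM +dox, 4131 to 4830 in DM, 5032 to 7795 in GM and 2232 to 9856 in GM +dox. The first 3 of these did not overlap, yet the normalized differences were at most 0.11 in size, with SEs of 0.13 to 0.15, and none passed.

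Cdkn1c (p57, an imprinted inhibitor) was the least open of the inhibitors, with 10 regions, none found in every library and none among the strongest of any. The single one listed by every kept library of a group and by no other kept library was 27.5 kb downstream, between genes, with a CAGCTG within 100 bp of its summit. It was listed in DM +dox only, at folds of 10.2, 5.01 and 9.35 and at ranks of 30944, 42352 and 25727, well below the strongest 14710. These ranks lie beyond the end of several lists without the region, such as GM replicate 1 (14710 peaks) and DM replicate 2 (23690 peaks). No share of all regions was set beside this criterion over all groups. The shares given below are for pairs of groups. Regions 36.4 kb downstream, 0.1 kb upstream and 42 kb upstream were each listed in 4 libraries. The full lists of DM +dox, at 46241 to 51340 peaks, were longer than those of DM, at 23690 to 40599.

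**Figure D3:**
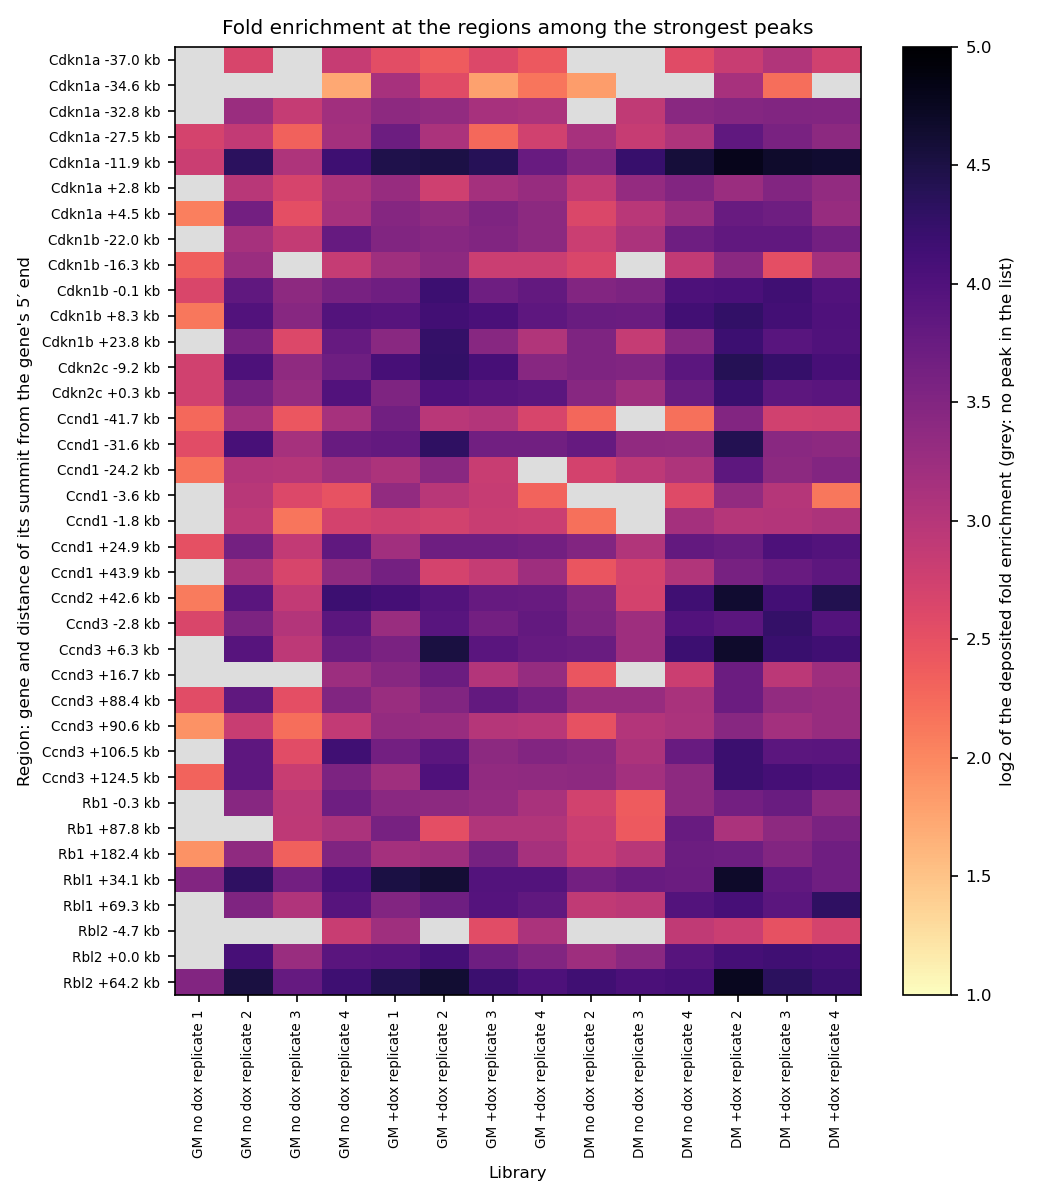
Log2 of the deposited fold enrichment at the 37 regions that reached the strongest peaks of any kept library, by library and group; grey cells have no listed peak. The left column, GM replicate 1, is palest and has the most grey, and the upstream Cdkn1a region is darkest in DM +dox.

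Among the D cyclins, Ccnd1, which is typical of proliferating cells, was open mainly far from its start. The region 31.6 kb upstream had a fold of 5.85, 16.8, 8.89 and 13.6 in GM, 14, 19.8, 12.7 and 12.7 in GM +dox, 13.7, 10.2 and 10.1 in DM, and 21.4, 10.8 and 10.4 in DM +dox. The groups overlapped, and within DM +dox replicate 2 was far above the others. DM differed from GM by -0.29 ± 0.19 with dox and 0.02 ± 0.19 without (log2, SE, limma adjusted p 0.809 and 0.980). Leaving out DM +dox replicate 2 moved the with-dox value to -0.51, and leaving out replicate 3 or 4 moved it to -0.17. The region 41.7 kb upstream was at 4.79 to 9.02 in GM and 6.31 to 12.7 in GM +dox, at 4.84 and 4.57 in DM with no peak in DM replicate 3, and at 11.2, 6.70 and 6.80 in DM +dox. In the fit with at least 2 peaks per group, DM was lower than GM there by a log2 difference of -0.59 ± 0.23 without dox (limma adjusted p 0.344). At the start of the neighbouring LTO1, 24.9 kb downstream, the differences ran from -0.08 to 0.18.

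Ccnd2, the D cyclin of many growth-stimulated cells, had 1 region in every library, 42.6 kb downstream at the start of Tigar, a p53-responsive gene of sugar metabolism. The fold there was 4.30, 14.9, 7.35 and 18.1 in GM, 17.1, 15.5, 13.7 and 13.6 in GM +dox, 11.2, 6.52 and 17.7 in DM, and 24.9, 17.3 and 21.6 in DM +dox. DM overlapped with every group, and dox in DM gave a difference of 0.43 (SE 0.22, 95% interval -0.03 to 0.89, limma adjusted p 0.754), and 0.17 once DM replicate 3 was left out. At the Ccnd2 start, peaks were listed in 2 of 4 GM libraries (5.33 and 4.53), 4 of 4 GM +dox libraries (5.02 to 8.23), 2 of 3 DM libraries (6.86 and 7.20) and 3 of 3 DM +dox libraries (6.19 to 13). The DM difference without dox was 0.75 ± 0.31 where at least 2 peaks per group were asked for (log2, SE, limma adjusted p 0.379), and it rests on the libraries that had a peak.

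Ccnd3, the D cyclin of differentiating muscle, held 19 regions, 4 of them in every kept library. The region 90.6 kb downstream, next to an internal start, had a fold of 3.77, 7.06, 4.61 and 7.38 in GM, 10, 9.78, 8.04 and 7.81 in GM +dox, 5.64, 8.09 and 8.61 in DM, and 10.9, 9.05 and 9.75 in DM +dox. Both dox groups stood above all GM libraries, while DM overlapped with GM. By rank, GM was at 13957 to 20317 and GM +dox at 10146 to 11924, again without overlap. The normalized difference was 0.40 for dox in GM (SE 0.17, 95% interval 0.05 to 0.74, limma adjusted p 0.799) and 0.47 for DM against GM without dox (SE 0.18, 0.09 to 0.84, limma adjusted p 0.315), comparisons that share the GM libraries. Among cells already in DM, dox gave -0.03 ± 0.19, and among cells already with dox, DM gave 0.04 ± 0.18. The interaction, -0.43 ± 0.26, did not pass (limma adjusted p 1.000), and was -0.27 without DM replicate 3. GM replicate 1 was the single GM library with this region among its strongest peaks, but its list holds just 14710 peaks, so every peak in it counts as such. Its fold of 3.77 was the lowest of the kept libraries.

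The other constant Ccnd3 regions moved less evenly. At 2.8 kb upstream, at the start of the neighbouring Taf8, which codes for a subunit of the general transcription factor TFIID, the peak was among the strongest of 13 libraries. Its fold was 6.29, 11.8, 8.12 and 14.8 in GM, 9.65, 15.1, 12.5 and 13.9 in GM +dox, 11.6, 9.40 and 15.7 in DM, and 14.8, 19.2 and 15.5 in DM +dox, with overlap between most groups. Its 4 differences lay between -0.06 and 0.21. At the internal start 88.4 kb downstream the differences ran from -0.26 to 0.06. At 124.5 kb, in an intron of Gm20517 near Usp49, the fold was 4.96, 14.5, 7.08 and 11.7 in GM, 9.25, 16.1, 10.2 and 10.3 in GM +dox, 10.4, 9.11 and 10.4 in DM, and 18.3, 17.1 and 16.2 in DM +dox. DM +dox stood above every other kept library on this raw scale, by 16.2 against 16.1 at the closest. Its ranks of 4253 to 7415 were ahead of the 9689 to 25471 of GM +dox, but overlapped with the 6919 to 12977 of DM. The difference between DM and GM with dox was 0.43 (SE 0.17, 95% interval 0.08 to 0.78, limma adjusted p 0.528), and dox in DM gave 0.25 ± 0.18 (limma adjusted p 0.816). With the replicate block, the difference between DM and GM with dox was 0.34 ± 0.15 (limma adjusted p 0.428). A weaker intronic region 37.1 kb downstream, holding a CAGCTG, was listed only with dox: at 14.9, 13.6, 5.69 and 5.46 in GM +dox and at 10.7, 5.2 and 7.52 in DM +dox, at ranks of 16191 to 41487. It was in none of the 7 kept libraries without dox, and in no library among the strongest peaks.

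Among the pocket proteins, Rb1 itself, the retinoblastoma protein that myotubes need to stay out of the cycle, had little strongly open chromatin. Its start had no peak in GM replicate 1 and stood at 10.9, 7.66 and 13 in the other GM libraries, 8.69 to 10.7 in GM +dox, 6.62, 5.2 and 10.4 in DM, and 12.6, 13.4 and 10.4 in DM +dox. The lowest values were in DM, with overlap, and in the fit with at least 2 peaks per group it differed from GM by -0.42 ± 0.20 without dox (log2, SE, limma adjusted p 0.450). The region present in every library was 182.4 kb downstream, at the start of Rcbtb2, where DM exceeded GM by 0.43 ± 0.21 without dox (limma adjusted p 0.451, and 0.27 once GM replicate 1 was left out) and by 0.17 ± 0.21 with dox. With the replicate block these differences were 0.32 ± 0.17 and 0.06 ± 0.17. An intronic region 91 kb downstream was listed in all 3 DM +dox libraries, at 11.7, 4.26 and 4.01, and in none of the 3 DM libraries, but also in 1 GM and 3 GM +dox libraries.

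Rbl1 (p107, the pocket protein of cycling cells) had its strongest region in an intron, 34.1 kb downstream. The fold was 11.2, 19.7, 12.6 and 16.8 in GM, 22.8, 24.3, 15.5 and 15.5 in GM +dox, 12.6, 13.6 and 13.3 in DM, and 25.7, 14.1 and 12.8 in DM +dox. In rank it stood at 602 to 3385 in GM and 385 to 3314 in GM +dox, against 2477, 3600 and 12110 in DM and 2917, 11730 and 15081 in DM +dox. The GM libraries ranked it higher for the most part, with overlap. The difference of DM from GM was -0.39 with dox (SE 0.16, 95% interval -0.71 to -0.06, limma adjusted p 0.538) and -0.25 ± 0.16 without dox (limma adjusted p 0.598), and dox gave 0.00 ± 0.15 in GM. Leaving out DM +dox replicate 2 moved the with-dox value to -0.61, and leaving out replicate 4 moved it to -0.26. With the replicate block, DM differed from GM by -0.33 ± 0.13 with dox and by -0.19 ± 0.13 without dox (limma adjusted p 0.356 and 0.578).

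Rbl2 (p130, the pocket protein typical of cells that have left the cycle) had a steady start, listed in every kept library but GM replicate 1, at 9.36 to 17.8, with differences of -0.12 to 0.10 in the fit with at least 2 peaks per group. A region 64.2 kb downstream, in an intron of Aktip 204 bp from its start, was the strongest of all 110. It ranked 3 to 22 in every one of the 14 kept libraries, at folds of 11.2 to 27.2, and its 4 differences lay between -0.13 and -0.01. Its local background was 4.51 to 30.9 fragments, against a genome-wide 0.339 to 1.13 per base, and 61 to 868 fragments stood at its summit. The part that this raised background plays in the rank was not tested.

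**Figure D4:**
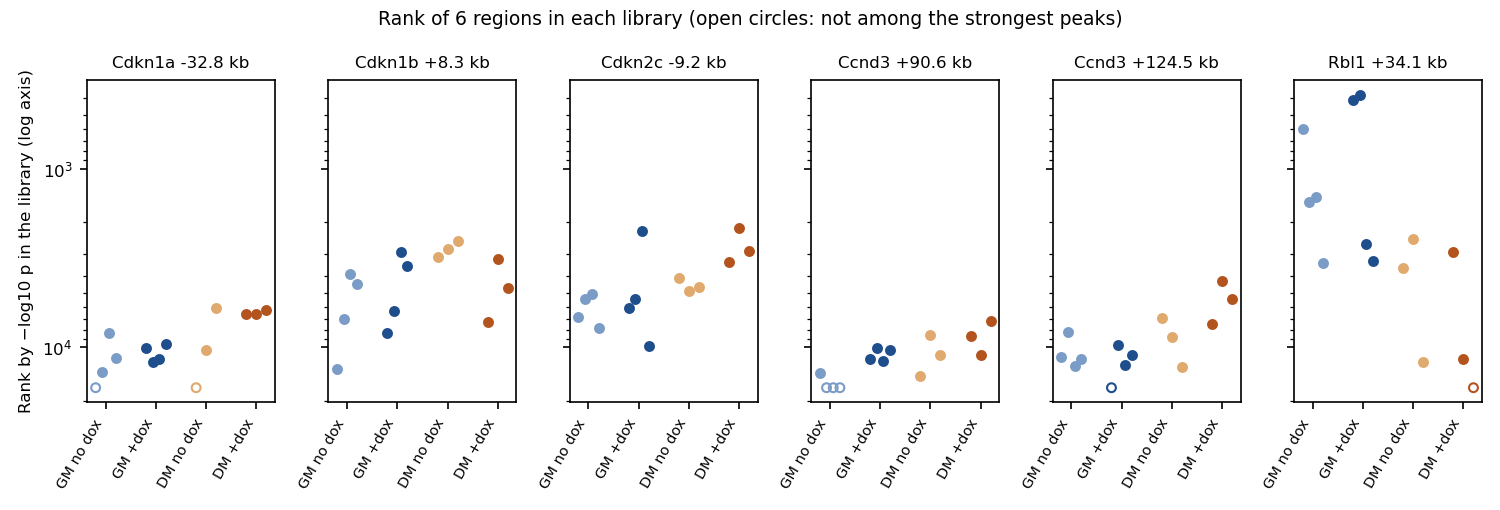
Rank by -log10 p of 6 member regions in each kept library, on a log axis with stronger peaks at the top; open circles, drawn at 1 level, had no peak among the 14710 strongest. GM and GM +dox separate at Ccnd3 +90.6 kb, and the 3 lowest points at Rbl1 +34.1 kb are those of 1 DM and 2 DM +dox libraries.

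The second question was whether regions appeared or vanished with a condition. Among the strongest peaks, 0 of 31 to 33 member regions were listed by all libraries of one group and by no library of the other in any comparison. Over the genome such regions were also rare, at 0.287% for dox in GM and 1.61% for dox in DM, and at 2.03% and 2.22% for serum withdrawal in cells without and with dox. When full lists were used, Ccnd3 37.1 kb downstream met the rule for dox in GM (1 of 91 member regions, background 0.446%), the same region with Rb1 91 kb and Cdkn1c 27.5 kb downstream for dox in DM (3 of 94, background 5.37%), and the Cdkn1c region for DM against GM with dox (1 of 101, background 1.49%). In each of these full lists the peaks were on the side of dox or DM, and the backgrounds count that side alone. The genome leaned the same way. There 310 regions were higher and 0 lower for dox in GM, and 3410 and 9 for dox in DM. For DM against GM with dox they were 1121 and 240. The part of list length in this direction was not tested. Among the strongest peaks, leaving out single libraries brought in 3 regions over all such runs, each time 1 of 30 to 33 member regions. Without GM replicate 1 the genome had 58 higher and 55 lower of 21601 for dox in GM. It had 326 and 376 of 21861 for DM against GM without dox. For dox in DM without DM replicate 2 it had 344 and 361 of 20636. For DM against GM with dox it had 317 and 307 of 21835 without GM +dox replicate 2. Without DM +dox replicate 2 these were 561 and 578 of 21870. Ccnd3 90.6 kb downstream met the rule for dox in GM, and between DM and GM in cells without dox, once GM replicate 1 was left out. Cdkn1b 23.8 kb downstream met it, on the side of dox, without DM replicate 2 and, on the side of DM, without GM +dox replicate 2. Ccnd1 31.6 kb upstream met it between DM and GM in cells with dox, on the side of GM, without DM +dox replicate 2. In lists of 7355 peaks, Cdkn1a 32.8 kb upstream met it in cells with dox, on the side of DM. That was 1 of 20 member regions, beside 122 higher and 106 lower of 12549 over the genome.

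Non-overlapping ranks were a looser criterion, added after the data were seen. Cdkn2c 9.2 kb upstream and Cdkn1a 32.8 kb upstream were described above after their values were seen, so meeting this criterion adds no evidence for them. For dox in GM it held 1 member region, Ccnd3 90.6 kb downstream, stronger with dox (background 1.93%). For dox in DM it held Cdkn2c 9.2 kb upstream, stronger, and Cdkn1b 8.3 kb downstream, weaker (background 8.66%). For DM against GM without dox both were stronger in DM (background 8.26%), and for DM against GM with dox Cdkn1a 32.8 kb upstream and Ccnd3 124.5 kb downstream were stronger in DM (background 9.32%). These were 1 to 2 of 31 to 33 member regions in each comparison, near the background.

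The third question was whether whole loci gained or lost peaks. Among the strongest peaks, Ccnd3 held 4, 5, 4 and 5 in GM, 2, 7, 5 and 7 in GM +dox, 6 in each DM library and 6 in each DM +dox library. It was the single locus without overlap in any comparison, 6.0 in DM against 4.50 in GM without dox, a difference of 1.5 (two-sided exact permutation p = 0.0571, the smallest that 3 against 4 libraries allow, adjusted p = 1.00 over all genes). Of all loci, 0.436% had no overlap for dox in GM and 2.79% for dox in DM, and 2.91% and 3.24% for serum withdrawal in cells without and with dox. In full lists the Ccnd3 difference was 0.333.

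The remaining loci overlapped in all 4 comparisons among the strongest peaks. Cdkn1a held 3, 3, 4 and 4 in GM, 5, 3, 4 and 4 in GM +dox, 4, 5 and 4 in DM, and 6, 6 and 4 in DM +dox. Ccnd1 held 4, 2, 4 and 2 in GM, 3, 2, 2 and 2 in GM +dox, 2, 3 and 2 in DM, and 1, 1 and 2 in DM +dox. Thus, among the strongest peaks, Cdkn1a was highest and Ccnd1 lowest by mean in DM +dox, with values shared between the groups compared. Cdkn1b stayed at 2 to 4, Cdkn2c, Ccnd2, Rb1 and Rbl1 at 0 to 2, Rbl2 at 1 to 3, and Cdkn1c at 0. In full lists dox in DM gave more peaks without overlap at Ccnd3 (10, 11 and 12 against 7, 8 and 7), Cdkn1c (3, 4 and 5 against 0, 0 and 1) and Rb1 (5, 5 and 5 against 3, 4 and 4). That was 3 of 10 loci, near the 29.1% of all genes that did so in these longer lists. The order of Cdkn1a and Ccnd1 among the strongest peaks did not hold in full lists. There Ccnd1 had its highest mean in DM +dox, at 12 to 14 peaks per library. It held 4 to 13 in GM, 10 to 15 in GM +dox and 5 to 12 in DM. The mean of Cdkn1a was higher in GM +dox (9 to 17 peaks) than in DM +dox (10 to 15).

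**Figure D5:**
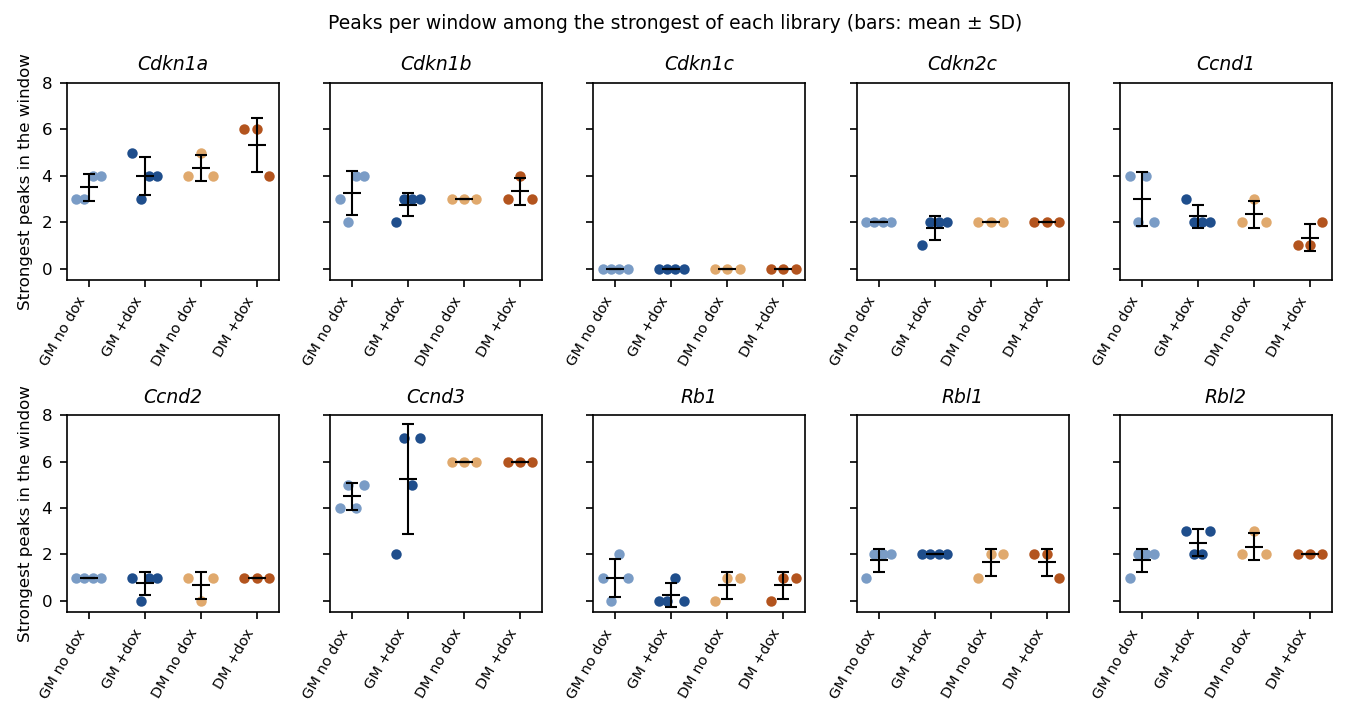
Number of strongest peaks in each member's window by group; points are libraries and bars give the mean ± SD over 4 GM, 4 GM +dox, 3 DM and 3 DM +dox libraries. Ccnd3 is at 6 in every DM and DM +dox library, and Cdkn1c is at 0 throughout.

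The wider pathway was read at the starts of 30 other genes of the G1/S transition, among them cyclin-dependent kinases, E2F factors and subunits of the DREAM complex, which joins pocket proteins to cell cycle promoters. A start peak was listed in any kept library for 28 and in all 14 for 16, of which 15 had it at 1 region throughout and were tested. The exceptions with none were Cdkn2a and Cdkn2b, the INK4 inhibitors of the senescence locus. Their windows held 14 and 13 peaks in total over the kept libraries, in 13 libraries each, against 133 in the window of Cdkn2d. The highest median folds were at Hdac1 (22.8), a histone deacetylase that binds pocket proteins, Ccna2 (20.9), an S-phase cyclin, and Skp2 (18.8), which marks p27 for destruction. Of the 15 tested, none passed in any of the 4 comparisons (smallest limma adjusted p 0.547), with median log2 differences of 0.00 for dox in GM and -0.05 for dox in DM, and of 0.12 and 0.02 for serum withdrawal in cells without and with dox. In cells without dox 11 were higher and 4 lower in DM, beside 14 and 3 of the member regions and a median of 0.01 over all regions. Both counts rest on the same GM and DM libraries, so they are not separate evidence. The share of all regions above 0 was not set beside them.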

How the data were processed

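ATAC-seq was performed on 16 libraries of C2C12 iMyoD1 cells. The authors aligned reads to mm10 with the nf-core/atacseq pipeline, removed blacklisted regions and called narrow peaks in each library with MACS2 (q under 0.05). The version of MACS2, and its shift settings, are not given in the sources used here. The deposited peak lists give for each peak a fold enrichment (a ratio of the pileup at the summit to the local background) and its -log10 p and -log10 q, and hold no read counts, so no count model was used. Depth is therefore known only from the pileup that the fold and p of each peak allow to be solved, which put the background at 0.339 to 1.13 fragments per base in the kept libraries.

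Overlapping peaks of all 16 lists were merged into regions (median width 396 bp), and the highest peak stood for a library. DM replicate 1 with and without dox was left out, as in the study's methods. Of 120 pairs of lists, 0 were identical. Groups were taken from the sample labels. Fold enrichments at 11046 regions with a peak in all 14 kept libraries were log2 transformed, quantile normalized and tested with limma 3.58.1 in R 4.3.3 (trended variance, Benjamini-Hochberg adjustment, threshold 0.05). Values are log2 differences ± SE, and n was 4 GM, 4 GM +dox, 3 DM and 3 DM +dox. The number of peaks per locus was compared by a two-sided exact permutation test over libraries for every protein-coding gene, whose smallest possible p is 0.0286 with 4 libraries on each side, 0.0571 with 3 and 4, and 0.100 with 3 on each side. All scripts that test were checked on simulated data.

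Replicate numbers are shared by the groups. Libraries of the same number deviated together (correlations of 0.106 to 0.465 over regions, above 0.1 in every pair), so the numbers were taken to pair the libraries and a fit with the number as a block was run beside the one without it. The text names the 10 genes with their starts, the regions with the smallest limma p in each comparison (values only, since none was called), all-or-none regions, and a list of 30 pathway genes. Regions 27.5 and 32.8 kb upstream of Cdkn1a, 2.8 kb upstream of Ccnd3, 9.2 kb upstream of Cdkn2c, 2.8 kb downstream of Cdkn1a, the Ccnd1, Ccnd2, Rb1 and Rbl2 regions beyond the rule, and the fit with at least 2 peaks per group were chosen after their values were seen. The members and lists were chosen with earlier results of these data known. Coordinates and sequences are those of mm10 (GRCm38.p6), on the + strand, counted from 1.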

Additional observations from a re-analysis of the deposited data

Results flagged for a closer look

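In groups of 4 libraries, a library was marked where its gap to the nearest other exceeded Dixon's critical share of the group's range. Of 54 such groups 8 were marked, where chance marks about 1 in 20, and 7 of these were counts of strongest peaks in which 3 libraries shared 1 value. In GM, Rbl1 and Rbl2 each had 1 peak in replicate 1 against 2 in the others. In GM +dox, replicate 1 had 2 peaks at Cdkn1b against 3, 1 at Cdkn2c against 2, and 3 at Ccnd1 against 2, replicate 2 had 0 at Ccnd2 against 1, and replicate 3 had 1 at Rb1 against 0. The eighth was the Cdkn2c start, where the normalized log2 fold of GM replicate 2 was 3.31, below the other GM libraries. GM replicate 1 had the shortest kept list (14710 peaks) and GM +dox replicate 1 the longest (58587 peaks), and the part of list length in these values was not tested. No member showed a difference of the dox response between GM and DM that passed the interaction test of limma.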

How the results depend on the processing

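At the 17 member regions, no alternative gave a call at an adjusted p of 0.05. Of the recomputed values of the results followed, 730 were counted as unchanged, 74 as moved and 0 as reversed. A count was unchanged when it stayed near the reported one. A difference was unchanged when its sign and its call stayed, whatever its size. Only the differences at some named regions were followed in this way. Outside them, dox in GM at the region 27.5 kb upstream of Cdkn1a changed sign. It was -0.21, but 0.02 without GM +dox replicate 3 and 0.01 without GM replicate 1. The number of regions called over the genome depended on the setting. For dox in GM it was 0, with 1 when -log10 p was the measure and 0 to 6 when single replicates were left out. For dox in DM it was 0, with 7 under median centring, 9 with the replicate block, 2 with the block where at least 2 peaks per group were asked for, and 0 to 1 when single replicates were left out. Serum withdrawal without dox (DM against GM) called 29, with 53 under median centring, 2 in the strongest peaks, 129 for -log10 p, 78 with a term for replicates 1 and 2 against 3 and 4, 130 with the replicate block and 0 in all 16 libraries (1096 regions tested). There, at least 2 peaks per group gave 18, 11 without GM replicate 1 as well, and 103 with the block, and leaving out single replicates gave 1 to 58. Serum withdrawal with dox called 5, with 28 under median centring, 0 in the strongest peaks, 139 for -log10 p, 39 with the block, 0 in all 16 libraries and 8 with no trend. At least 2 peaks per group gave 22, 30 without GM replicate 1 and 61 with the block, and leaving out single replicates gave 2 to 16. The cause of these shifts was not tested.

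All-or-none member regions numbered 0 in each comparison, with 1, 3 and 1 in full lists for dox in GM, dox in DM and DM against GM with dox, 1 in lists of 7355 peaks for the last of these, and 0 to 1 when single replicates were left out. Member regions with non-overlapping ranks numbered 1, 2, 2 and 2, and 1 to 2, 2 to 7, 2 to 7 and 2 to 7 when single replicates were left out. Genome counts rose too wherever the replicate belonged to the comparison. In full lists they were 6 of 91, 8 of 94, 4 of 80 and 7 of 101. Over the genome, 1449 were stronger and 334 weaker of 69455 for dox in GM, and 5992 and 1871 of 63484 for dox in DM. For serum withdrawal they were 2090 and 1401 of 57467 without dox, and 4746 and 3038 of 75263 with dox. Loci without overlap for dox in DM numbered 0, with 3 in full lists (beside 29.1% of all genes) and 0 to 2 when single replicates were left out. Between DM and GM without dox the 1 locus, Ccnd3, was lost in full lists (0), in lists of 7355 peaks (0) and in all 16 libraries (0), and its paired difference under the replicate block was 1.33 peaks, with a p of 0.250 in an exact test over the signs of 3 pairs, which can reach no less. Between DM and GM with dox the number was 0, with 1 in windows of 100 kb each side and 0 to 2 when single replicates were left out. For loci, no share of all genes was set beside the counts of these wider windows or of the left-out replicates. Those counts therefore cannot be read as particular to the members. The block changed no other call of a member. The lists give no coverage outside peaks, so a region with no peak in a library has no value there, and the strengths compared are those of regions open in every library.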
